A study of Mus musculus with 21 samples.

Results

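The 8 genes described here encode growth factor receptors of 3 families: the epidermal growth factor (ErbB) receptors Egfr, Erbb2, Erbb3 and Erbb4, the hepatocyte growth factor (HGF) receptor Met, and the fibroblast growth factor (FGF) receptors Fgfr1, Fgfr2 and Fgfr3. They were taken by symbol, 8 of the 54532 genes with deposited values, and each was found once. Their mRNA was followed in 21 libraries of 7 mouse glioma stem-like lines, cultures derived from brain tumours of genetically engineered mice. Of these, the 3 lines PC134-0, PC308-1 and PC326-1 are IDH1 WT, and the 4 lines PIC144-1 and PIC144-3 as well as PIC496-3 and PIC496-4 are IDH1 mutant, with 3 libraries a line. The labels list no treatment, and they name no engineered allele besides IDH1. All 7 lines grew without attachment in serum-free neural stem cell medium with EGF at 20 ng/mL, basic FGF at 20 ng/mL and heparin at 2 μg/mL, in 5% oxygen. Every line therefore received ligands of EGFR and of the FGF receptors, and no culture without them was analysed here. The labels call the 3 libraries of a line biological replicates, without saying whether they were separate cultures. They also do not say whether PIC144-1 and PIC144-3, or PIC496-3 and PIC496-4, came from 1 animal.

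These receptors cross the cell membrane once and carry a tyrosine kinase inside the cell. A ligand brings receptor molecules together, the kinases phosphorylate the tails, and adaptor proteins bound there start the RAS-ERK and PI3K cascades that drive growth of neural progenitors and gliomas. ERBB2 has no known ligand of its own and works as a partner of the other ErbB receptors, whereas ERBB3 has a weak kinase and signals through such a partner. FGF ligands need heparan sulphate chains to bind FGF receptors, and heparin takes that place in stem cell medium.

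The deposited unit was FPKM, a fragment count divided by gene length and by sequencing depth, so levels below are per length. For the 8 receptors that length was all annotated exon bases, from 5210 for Erbb2 to 12355 for Erbb4. The length of the transcripts expressed was not measured, so ratios, shares and ranks across genes are approximate. The value of a line is the mean of its 3 libraries, and a genotype is summarised over lines (n = 4 IDH1 mutant and n = 3 IDH1 WT). Libraries held 15011668 to 21966351 fragments. Differences are IDH1 mutant minus IDH1 WT on the log2(FPKM + 0.5) scale, which understates differences of low genes, and were tested with limma in the 13379 genes with at least 0.5 FPKM in at least 3 lines. Erbb3 and Met did not reach that level in 3 lines and have values below but no place in that test. Markers of the labelled neural stem-like state were high, as Sox2 lay between 103 and 228 FPKM and Nes between 46.9 and 80.5 FPKM over the lines. Under 0.1 FPKM in every line were 5 of 8 microglia and macrophage markers (Ptprc, Cx3cr1, Csf1r, Aif1 and Itgam), 2 of 6 of endothelium and pericytes (Pecam1 and Cdh5), 2 of 6 of fibroblasts (Col1a2 and Lum) and 5 of 6 of epithelium (Cdh1, Krt8, Krt18, Krt19 and Krt5). Other markers of these lists were not: Cd68 reached 5.05 FPKM and P2ry12 1.36 FPKM in PC134-0, Kdr 0.728 FPKM in PC326-1, Thy1 3.74 FPKM in PC134-0, Col1a1 1.63 FPKM in PIC496-4 and Dcn 10.4 FPKM in PIC144-1.

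Promoters are shown first for 3 ErbB genes: Erbb4 and Erbb2, whose line means were lower in all IDH1 mutant lines than in all IDH1 WT lines, and Egfr, whose line means were not so ordered. Each run is the 250 bases before the RefSeq start in GRCm38.p6, read 5′ to 3′ on the gene's strand, with every CG dinucleotide in capitals because CG is the site that DNA methylation modifies. Methylation itself was not measured in these libraries.
Erbb4: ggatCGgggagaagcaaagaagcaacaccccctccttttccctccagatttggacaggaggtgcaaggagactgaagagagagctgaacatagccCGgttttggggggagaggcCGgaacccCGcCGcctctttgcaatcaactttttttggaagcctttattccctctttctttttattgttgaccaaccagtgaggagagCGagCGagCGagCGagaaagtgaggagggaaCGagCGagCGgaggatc
Erbb2: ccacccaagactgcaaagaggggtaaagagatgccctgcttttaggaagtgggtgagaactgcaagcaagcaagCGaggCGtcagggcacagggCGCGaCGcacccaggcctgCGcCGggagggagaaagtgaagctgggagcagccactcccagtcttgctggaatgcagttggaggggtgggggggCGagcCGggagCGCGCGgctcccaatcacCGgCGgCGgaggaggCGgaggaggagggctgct
Egfr: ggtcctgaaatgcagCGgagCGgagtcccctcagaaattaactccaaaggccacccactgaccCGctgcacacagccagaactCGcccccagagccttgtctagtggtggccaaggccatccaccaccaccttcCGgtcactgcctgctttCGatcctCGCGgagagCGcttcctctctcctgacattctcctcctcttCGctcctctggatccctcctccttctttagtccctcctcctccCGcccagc
The Erbb4 stretch lies at chr1:69108060-69108309 on the minus strand and has 12 CG, the Erbb2 stretch at chr11:98412234-98412483 on the plus strand has 16 CG, and the Egfr stretch at chr11:16751953-16752202 on the plus strand has 11 CG. Of 32851 mouse promoters of this length, 33.5% held at least as many CG as Erbb4, 25.4% as many as Erbb2 and 35.6% as many as Egfr, against a median of 6. All 3 counts were above that median. The GC box GGGCGG, searched on both strands, was found once in the Egfr stretch and in neither of the others, and 32.7% of all promoters held it. TATAAA was found on neither strand of the 3 stretches and in 12.4% of all promoters. RefSeq promoters were matched for 6 of the 8 receptor genes, all but Fgfr1 and Erbb3, and a second start of Fgfr3 made 7 stretches. Outside the 3 shown, the count ran from 2 CG before Fgfr2 to 24 CG before Met and before the second Fgfr3 start.

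By line mean, Fgfr1 was the main receptor mRNA of the set in every line and Egfr was second in 6 of the 7. In PIC144-1 the libraries of Egfr and Erbb2 overlapped. Erbb3 and Met were close to 0 in most lines. Erbb4 had the largest genotype difference of the 8, at 0.128 ± 0.184 FPKM (SD, n = 4) in IDH1 mutant lines and 1.48 ± 0.350 FPKM (SD, n = 3) in IDH1 WT lines. Erbb2 was at 3.13 ± 1.05 FPKM (SD, n = 4) and 5.87 ± 0.854 FPKM (SD, n = 3). None of the 6 tested receptors passed the genotype test at an adjusted p under 0.05. That test called 16 of 13379 genes, or 0.12% (0 without PC134-0 and 0 without PC326-1, with 693 and 923 at an unadjusted p under 0.05, 5 without PIC496-4, 9 without PIC144-1, 10 without PIC496-3 and 29 without PC308-1). In the test with all lines 12.8% had an unadjusted p under 0.05 (6.7% lower and 6.09% higher in mutant lines). Erbb2 and Erbb4 were among those lower, and no receptor was among those higher. All IDH1 mutant line means lay below all IDH1 WT line means for 2 of the 8 receptors, Erbb2 and Erbb4, an order found in 6.43% of the genes tested. No receptor had the opposite order, found in 6.82%. In a bulk culture, fewer cells that express a gene and less RNA per cell cannot be told apart.

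**Figure D1:**
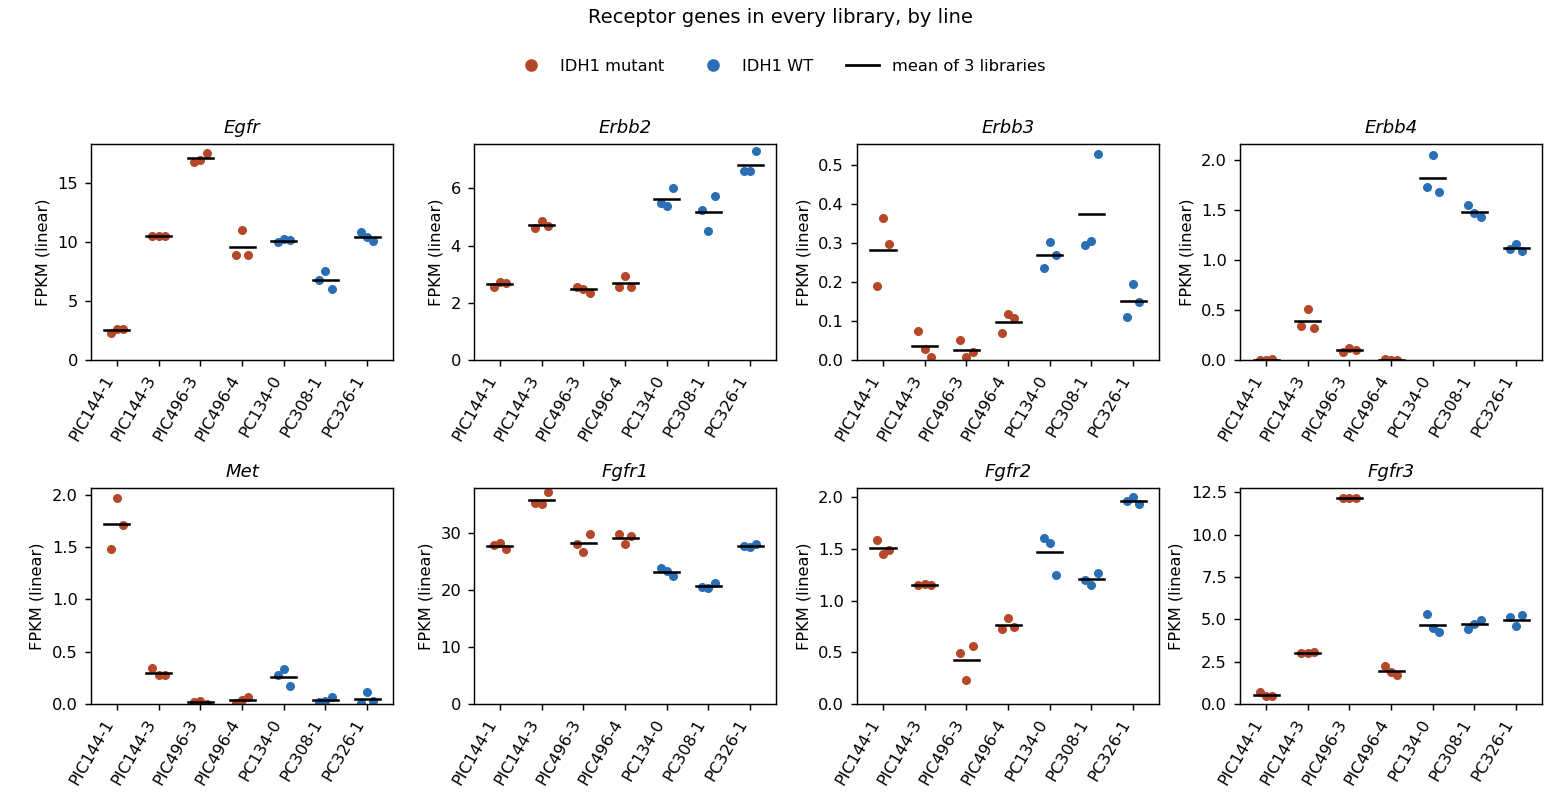
Each panel is 1 receptor gene, each point its FPKM in 1 library (vertical axis, linear, with a scale of its own in each panel), by line on the horizontal axis and coloured by genotype, and the bars are means of 3 libraries. Fgfr1 lies between 20.3 and 37.2 FPKM in all 21 libraries, whereas Erbb4 is at 1.09 FPKM or more in every IDH1 WT library and at 0.517 FPKM or less in every IDH1 mutant library.

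Erbb4 encodes the neuregulin receptor with an active kinase. The gene (ENSMUSG00000062209) lies at chr1:68032186-69108059 on the minus strand in GRCm38, the build whose coordinates the deposited table carries. The libraries of PC134-0 held 1.73, 2.06 and 1.68 FPKM, those of PC308-1 1.55, 1.47 and 1.44 FPKM, and those of PC326-1 1.11, 1.16 and 1.09 FPKM. PIC144-3 held 0.344, 0.517 and 0.324 FPKM, and PIC496-3 held 0.0862, 0.127 and 0.109 FPKM. PIC144-1 gave 4 fragments over its 3 libraries and PIC496-4 gave 2, against 682 in PC326-1, the lowest IDH1 WT line. All 12 IDH1 mutant libraries were thus below all 9 IDH1 WT libraries, and the mutant lines themselves ranged from a few fragments to the 268 of PIC144-3. The ratio of genotype means was 11.5, WT over mutant. The difference was −1.68 (SE 0.274, 95% interval −2.32 to −1.05), with an unadjusted p of 0.000312 and an adjusted p of 0.111 in limma over line means. Permuting genotype over the lines (exact, two-sided, 35 splits) gave p = 0.0286 for Erbb4, the smallest p this design allows. Erbb4 entered the test only through the 3 IDH1 WT lines, since no IDH1 mutant line reached 0.5 FPKM, so a difference was built into its selection. At a pseudocount of 0.1 the same exact test gave p = 0.0571, and in a limma fit over 21 libraries with the line as a random effect the adjusted p was 0.000162. That fit takes libraries of a line partly as replicates of a genotype, and it called 552 of 13379 genes, against 16 over line means.

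Erbb2 encodes the ErbB partner with no known ligand. It lies at chr11:98412470-98437716 on the plus strand (ENSMUSG00000062312), with 0.173% of its exon bases shared with Mien1 on the other strand. The libraries of PC134-0 held 5.49, 5.39 and 5.99 FPKM, those of PC308-1 5.25, 4.50 and 5.73 FPKM, and those of PC326-1 6.60, 6.58 and 7.28 FPKM. Among the mutants, PIC144-3 held 4.60, 4.84 and 4.67 FPKM. PIC144-1 held 2.57, 2.72 and 2.71 FPKM, PIC496-3 2.56, 2.50 and 2.35 FPKM, and PIC496-4 2.57, 2.93 and 2.55 FPKM. The last 3 lines were close together at means of 2.47 to 2.68 FPKM, and PIC144-3 stood above them at 4.70 FPKM with libraries that overlapped those of PC308-1. The ratio of genotype means was 1.87, WT over mutant, and the difference −0.84 (SE 0.231, 95% interval −1.38 to −0.31), with adjusted p = 0.28 in limma. The exact permutation test gave p = 0.0571. The limma fit over 21 libraries with the line as a random effect, which takes libraries partly as replicates of a genotype, gave an adjusted p of 0.0107. It called 552 of 13379 genes, Erbb2 among them. The cause of that change in the call was not tested. Over the 7 lines Erbb2 and Erbb4 had a Pearson r of 0.902 (Spearman 0.75) on the log2 scale, a description over points that share the 2 genotype groups.

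Egfr encodes the receptor of EGF, TGF-alpha, amphiregulin and other ligands, and is the ErbB receptor most often altered in human glioma. It lies at chr11:16752203-16918158 on the plus strand (ENSMUSG00000020122). The libraries of PIC144-1 held 2.31, 2.63 and 2.65 FPKM, the lowest of all, and those of PIC496-3 held 16.8, 16.9 and 17.5 FPKM, the highest of all. Between them PIC144-3 held 10.5, 10.5 and 10.5 FPKM and PIC496-4 held 8.86, 11.0 and 8.91 FPKM. The IDH1 WT lines held 9.96, 10.3 and 10.1 FPKM in PC134-0, 6.77, 7.53 and 6.01 FPKM in PC308-1, and 10.9, 10.4 and 10.1 FPKM in PC326-1. The lowest and the highest line were both IDH1 mutant, 6.75-fold apart, and among PIC144-3, PC326-1, PC134-0 and PIC496-4, in that order of means, neighbours overlapped. PIC496-4 overlapped PC134-0 only through its library at 11.0 FPKM. Genotype means were 9.92 ± 5.95 FPKM (SD, n = 4) in mutant and 9.11 ± 2.04 FPKM (SD, n = 3) in WT lines. The difference of −0.11 (SE 0.542, 95% interval −1.37 to 1.15, adjusted p = 0.942 in limma) had the opposite sign to that of the mean FPKM. It was smaller than the spread between lines, and the interval holds more than a doubling in either direction. Without PIC144-1 it was 0.40 and still not called (adjusted p = 0.566 in limma).

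Erbb3, the neuregulin receptor with the weak kinase, was low in all lines. It lies at chr10:128567523-128589652 on the minus strand (ENSMUSG00000018166). Library values ran from 0.00773 to 0.364 FPKM in the mutant lines and from 0.111 to 0.528 FPKM in the WT lines, from between 1 and 56 fragments a library. The genotypes overlapped, since PIC144-1 with a line mean of 0.284 FPKM was above PC134-0 and PC326-1. Means were 0.112 ± 0.119 FPKM (SD, n = 4) and 0.266 ± 0.112 FPKM (SD, n = 3). In a fit without the expression filter (30221 genes, 0.00993% called) the difference was −0.33 (SE 0.187, adjusted p = 0.689 in limma), and the exact permutation test gave p = 0.143.

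Within the ErbB family the balance of receptors differed by line. Egfr made up 86.8% of the summed ErbB FPKM in PIC496-3, where the ratio of Egfr to Erbb2 was 6.91, and 46.1% in PIC144-1. In PIC144-1 the ratio of line means was 0.948. The libraries of Egfr (2.31 to 2.65 FPKM) and Erbb2 (2.57 to 2.72 FPKM) overlapped there, so their order was not resolved. The WT lines lay in a narrower band, with Egfr at 49.1 to 56.7% of the ErbB sum.

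Met, the receptor of HGF, was measured at more than trace level in 1 line. It lies at chr6:17463800-17573980 on the plus strand (ENSMUSG00000009376). PIC144-1 held 1.48, 1.97 and 1.71 FPKM from 189, 262 and 213 fragments. PIC144-3 held 0.347, 0.280 and 0.273 FPKM, and the WT line PC134-0 held 0.277, 0.329 and 0.169 FPKM. The other 4 lines had means of 0.0146 to 0.0494 FPKM, from 6 to 19 fragments a line. PIC144-1 was 5.74-fold above the next line, PIC144-3, and its libraries did not overlap any other. Genotype means of 0.518 ± 0.812 FPKM (SD, n = 4) and 0.115 ± 0.124 FPKM (SD, n = 3) overlapped, and the exact permutation test gave p = 0.6. Without the filter, Met differed among the 7 lines (adjusted p = 1.53e-10 in limma's F test over libraries, which called 49.2% of genes). PIC144-1 was also the line with the least Egfr and the least Fgfr3.

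Fgfr1 was the most even of the 8 genes. Its protein binds basic FGF, which was in the medium, and it is the FGF receptor usually found on neural stem cells. The gene lies at chr8:25513654-25575718 on the plus strand (ENSMUSG00000031565), with 1.66% of its exon bases shared with Gm16159 on the other strand. PIC144-3 was highest with 35.3, 35.2 and 37.2 FPKM. PIC144-1 held 27.9, 28.2 and 27.3 FPKM, PIC496-3 28.1, 26.8 and 30.0 FPKM, and PIC496-4 29.8, 28.1 and 29.5 FPKM. The WT lines held 23.9, 23.3 and 22.4 FPKM in PC134-0, 20.6, 20.3 and 21.3 FPKM in PC308-1, and 27.7, 27.5 and 28.1 FPKM in PC326-1. The highest line was 1.73-fold above the lowest, and PC326-1 reached the level of 3 of the mutant lines. Means were 30.3 ± 3.78 FPKM (SD, n = 4) in mutant and 23.9 ± 3.57 FPKM (SD, n = 3) in WT lines, a difference of 0.34 (SE 0.155, 95% interval −0.02 to 0.69, adjusted p = 0.408 in limma) that did not pass. The exact permutation test gave p = 0.0571.

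Fgfr3 was spread over a wide range in the mutant lines and lay in a narrow one in the WT lines, a difference in spread that was not tested. Its protein is found in astrocytes and neural progenitors. The gene lies at chr5:33721674-33737068 on the plus strand (ENSMUSG00000054252), and 13.9% of its exon bases are shared with G630022F23Rik on the other strand. Libraries of PIC496-3 held 12.2, 12.1 and 12.2 FPKM and those of PIC144-1 held 0.691, 0.467 and 0.456 FPKM. PIC144-3 held 2.98, 2.98 and 3.04 FPKM and PIC496-4 held 2.25, 1.90 and 1.70 FPKM. The mutant lines did not overlap each other and were 22.6-fold apart. The WT lines held 5.29, 4.50 and 4.25 FPKM in PC134-0, 4.40, 4.74 and 4.97 FPKM in PC308-1, and 5.13, 4.58 and 5.23 FPKM in PC326-1. Their means of 4.68 to 4.98 FPKM were 1.06-fold apart and overlapped. Genotype means were 4.41 ± 5.27 FPKM (SD, n = 4) and 4.79 ± 0.167 FPKM (SD, n = 3), a difference of −0.70 (SE 0.726, 95% interval −2.38 to 0.99, adjusted p = 0.687 in limma). Without PIC144-1 it was −0.15 and without PIC496-3 −1.35, neither called.

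Fgfr2, known from oligodendrocyte lineage and astroglial cells, was at most 2.00 FPKM in any library. Its annotated span, chr7:130162451-133123350 on the minus strand (ENSMUSG00000030849), holds 69 other genes, and 3.04% of its exon bases are shared with Ctbp2 on the same strand. PIC496-3 was lowest, at 0.491, 0.234 and 0.564 FPKM, and PC326-1 highest, at 1.97, 2.00 and 1.94 FPKM. PIC144-1, PC134-0, PC308-1 and PIC144-3 had means of 1.51, 1.47, 1.21 and 1.15 FPKM, and neighbours in that order overlapped. Genotype means were 0.964 ± 0.467 FPKM (SD, n = 4) and 1.55 ± 0.387 FPKM (SD, n = 3), a difference of −0.53 (SE 0.299, 95% interval −1.22 to 0.17, adjusted p = 0.481 in limma).

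**Figure D2:**
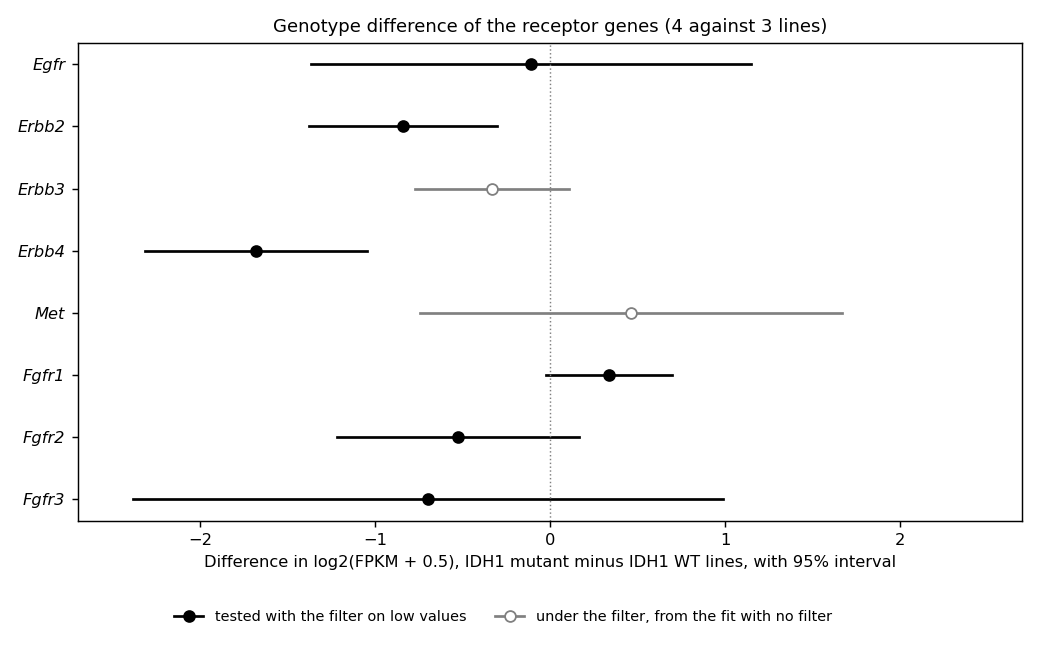
Points are the differences in log2(FPKM + 0.5), IDH1 mutant minus IDH1 WT, of the 8 receptor genes (horizontal axis) with 95% intervals from limma over line means, and Erbb3 and Met come from the fit without the expression filter. The intervals of Erbb4 (−2.32 to −1.05) and Erbb2 (−1.38 to −0.31) lie below 0, unadjusted for the number of genes tested, and that of Egfr spans 0 on both sides.

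Differences among lines of 1 genotype were the rule for these genes, as for most genes. All 6 tested receptors passed limma's F test over the 7 lines, which called 89.6% of the genes tested, and all 6 passed among the 4 mutant lines, where 80.7% of genes did. Among the 3 WT lines 5 of the 6 passed, where 61.4% of genes did. Fgfr3 was the one that did not (adjusted p = 0.693 in limma). These F tests take the 3 libraries of each line as replicates, which the labels call biological. Where they were not separate cultures, the p-values measure only the spread between these samples, which may be technical. Fgfr1 made up 75.0% of the summed FPKM of the 8 genes in PIC144-1 and 46.7% in PIC496-3, the line with the most Egfr and Fgfr3. Egfr and Fgfr3 had a Pearson r of 0.862 (Spearman 0.643) over the 7 lines, and both were lowest in PIC144-1 and highest in PIC496-3.

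Against 50 other receptor tyrosine kinase genes, which makes 58 in all, Fgfr1 ranked between 2 and 5 in every line. Egfr ranked 6 in PIC496-3, 7 in PIC496-4, 11 in PIC144-3 and 21 in PIC144-1, and between 13 and 14 in the WT lines. Erbb2 ranked between 17 and 22. Erbb4 ranked 25 to 28 in the WT lines and 34 to 54 in the mutant lines. The kinases above Fgfr1 in at least 1 line were the collagen receptors Ddr1 and Ddr2, the Wnt co-receptors Ryk and Ptk7, the ephrin receptor Ephb4 (in PIC144-1, at 29.5 FPKM) and the PDGF receptor Pdgfra (in PC308-1, at 104 FPKM). Of the other kinases 26 were tested, none was called, and 21 had a negative and 5 a positive difference with a median of −0.15, against 6583 negative of 13379 and a median of 0.01 over all genes. Of these 26, 2 had an unadjusted p under 0.05, both lower in mutant lines, which held for 6.7% of all genes tested. They were Pdgfra and the neurotrophin receptor Ntrk3, the latter at 1.36 ± 0.850 FPKM (SD, n = 4) and 5.14 ± 0.801 FPKM (SD, n = 3).

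Ligand mRNA made by the cells themselves was read next. Of 11 ErbB ligand genes 5 reached 1 FPKM in at least 1 line and 4 were tested, of which none was called and 3 had a negative difference (median −0.70). Hbegf, the heparin-binding EGFR ligand, ranged from 5.67 FPKM in PIC496-4 to 11.5 FPKM in PC326-1, and the genotypes overlapped (adjusted p = 0.528 in limma). Areg, encoding amphiregulin, was at 15.6 FPKM in PIC144-1 and 15.4 FPKM in PIC496-3, the lines with the least and the most Egfr. It was at 5.37 FPKM in PIC144-3, 3.53 FPKM in PIC496-4, 2.59 FPKM in PC134-0, 6.76 FPKM in PC308-1 and 2.20 FPKM in PC326-1. Ereg, encoding epiregulin, was at 3.36 FPKM in PIC144-1 and at most 0.101 FPKM in the other lines. Tgfa was highest in PC308-1 at 4.62 FPKM and lowest in PIC496-4 at 0.0789 FPKM. Among the neuregulins, which bind ERBB3 and ERBB4, Nrg1 was at most 0.109 FPKM and Nrg3 was listed at 0 in every library. Nrg2 was at 0.833 ± 0.649 FPKM (SD, n = 4) and 1.97 ± 0.282 FPKM (SD, n = 3), and every mutant line was below every WT line (unadjusted p = 0.0371 and adjusted p = 0.373 in limma). That order was found in 6.43% of the genes tested, and 6.7% were lower in mutant lines at an unadjusted p under 0.05.

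**Figure D3:**
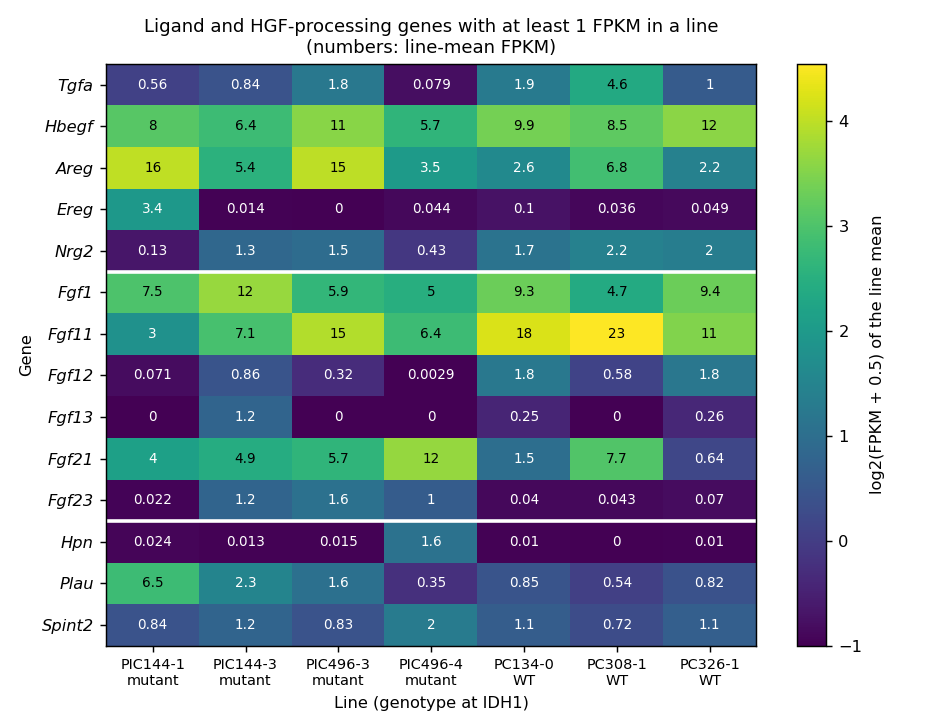
Rows are the ligand and HGF-processing genes that reach 1 FPKM in a line, columns are the 7 lines, the printed numbers are line means in FPKM and the colour is log2(FPKM + 0.5). Areg is highest in PIC144-1 (15.6 FPKM) and PIC496-3 (15.4 FPKM), and Ereg is above 1 FPKM in PIC144-1 alone.

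Of 22 FGF ligand genes 6 reached 1 FPKM in a line and 5 were tested, none called, with 2 positive and 3 negative differences. An unadjusted p under 0.05 was found for Fgf11 and Fgf12, lower in mutant lines, and for Fgf23, higher in mutant lines, the last 2 named after their values were seen. Among all genes tested, 6.7% were lower and 6.09% higher at that level. Fgf23 entered the test only through 3 mutant lines, with every WT line at or below 0.0704 FPKM, so a difference was built into its selection. Fgf1, a ligand of all FGF receptors, was at 4.73 to 12.4 FPKM. Fgf11, one of the FGFs that stay inside the cell, was at 7.75 ± 4.87 FPKM in mutant and 17.3 ± 6.12 FPKM in WT lines (SD, n = 4 and n = 3, adjusted p = 0.372 in limma). Fgf21, a hormone-like FGF that needs beta-Klotho, ranged from 0.636 FPKM in PC326-1 to 12.2 FPKM in PIC496-4. Klb, the gene of beta-Klotho, was at most 0.0397 FPKM. Fgf2 itself, the basic FGF of the medium, was at 0.118 to 0.452 FPKM. Of 11 genes for HGF and its activation, Hgf was at most 0.0341 FPKM in any line, PIC144-1 included. Plau, encoding a protease that can activate HGF, was highest in that line at 6.50 FPKM against 0.350 to 2.31 FPKM in the others. Hpn, another such protease, was at 1.61 FPKM in PIC496-4 and at most 0.0244 FPKM elsewhere.

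Of 26 FGF co-receptor and heparan sulphate genes 21 reached 1 FPKM in a line and 21 were tested. None was called, and 12 had a negative difference (median −0.16). Fgfrl1, encoding an FGF receptor with no kinase, was at 60.6 to 166 FPKM and so above Fgfr1 in every line. The syndecan Sdc3 was at 50.3 FPKM or more in every line, and the glypican Gpc4 at 4.37 to 38.4 FPKM, highest in PIC144-3. There were 4 members with an unadjusted p under 0.05, all lower in mutant lines: Sdc2, Sdc4, Gpc3 and Gpc6, named after their values were seen. Of all genes tested, 6.7% had such a p and were lower in mutant lines. Gpc6 was at 9.09 ± 0.949 FPKM (SD, n = 4) and 14.5 ± 1.21 FPKM (SD, n = 3), with adjusted p = 0.201 in limma.

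All 27 adaptor and proximal signalling genes were tested and none was called, with 11 positive and 16 negative differences and a median of −0.04. An unadjusted p under 0.05 was found for Pik3r1 and Gab1, lower in mutant lines, and for Pik3r3, higher in mutant lines. The shares over all genes tested were 6.7% lower and 6.09% higher. Pik3r1, the main regulatory subunit of PI3K, was at 20.8 FPKM in PIC144-1, 35.5 FPKM in PIC144-3, 32.9 FPKM in PIC496-3 and 17.7 FPKM in PIC496-4. It was at 56.4 FPKM in PC134-0, 59.4 FPKM in PC308-1 and 45.8 FPKM in PC326-1. All mutant lines thus lay below all WT lines, an order found in 6.43% of the genes tested. The difference of Pik3r1 was −1.05 (SE 0.264, adjusted p = 0.267 in limma). Pik3r3, another regulatory subunit, had the opposite sign at 52.9 ± 17.1 FPKM (SD, n = 4) and 24.1 ± 21.5 FPKM (SD, n = 3), and the lines overlapped because PC308-1 was at 48.9 FPKM. Gab1, the docking protein behind EGFR and MET, was at 17.1 ± 7.12 FPKM (SD, n = 4) and 28.6 ± 4.41 FPKM (SD, n = 3), with adjusted p = 0.373 in limma.

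Of 25 genes for receptor inhibitors and turnover 23 were tested and none was called, with 6 positive and 17 negative differences (median −0.13). The ERK feedback inhibitors Spry2 and Spry1 had the highest means over the lines, at 89.4 to 137 FPKM and 57.3 to 131 FPKM. Lrig1 was at 29.3 to 117 FPKM and above these in PIC144-1 (113 FPKM) and PC134-0 (117 FPKM). Spry4 was at 25.8 to 120 FPKM. Il17rd, which encodes an FGF receptor antagonist, was lowest in PIC496-4 at 0.216 FPKM and highest in PC308-1 at 9.33 FPKM. Dcn, encoding the proteoglycan decorin that binds EGFR and MET, was at 10.4 FPKM in PIC144-1 and at most 0.0441 FPKM in the others. Dcn is also a fibroblast marker. The 6-gene fibroblast list summed to 11.3 FPKM in PIC144-1 and to 0.750 to 4.18 FPKM elsewhere, while Col1a2 and Lum were near 0 there too. Spry3, Spred1 and Erbin, named after their values were seen, had unadjusted p under 0.05, all lower in mutant lines, as found in 6.7% of all genes tested. Spred1, a RAS pathway inhibitor, was at 49.3 ± 4.06 FPKM (SD, n = 4) and 69.7 ± 5.19 FPKM (SD, n = 3), with adjusted p = 0.267 in limma.

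All 18 genes for transcripts that ERK signalling induces were tested and none was called, with 7 positive and 11 negative differences and a median of −0.08. Etv5, a classical FGF target, was at 190 to 349 FPKM, with 349 FPKM in PIC144-3, the line with the most Fgfr1. The order of the other lines differed: Etv5 was lowest in PIC496-4, the line next in Fgfr1, and at 238 FPKM in PC308-1, the line with the least Fgfr1. Ier3 was at 108 to 362 FPKM. Egr1 was lowest in PIC144-1 at 3.42 FPKM and highest in PIC496-3 at 41.2 FPKM, the same end lines as for Egfr. Epha2, encoding an ephrin receptor that ERK signalling induces, had these end lines reversed. It was highest in PIC144-1 at 10.3 FPKM and lowest in PIC496-3 at 0.436 FPKM, with the other lines at 0.580 to 2.63 FPKM. Myc, named after its values were seen, was at 128 ± 102 FPKM (SD, n = 4) and 28.2 ± 2.46 FPKM (SD, n = 3), and every mutant line was above every WT line (unadjusted p = 0.0108 and adjusted p = 0.292 in limma). That order was found in 6.82% of the genes tested, and 6.09% were higher in mutant lines at an unadjusted p under 0.05.

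Likeness was read among tested genes spanning at least 1 on the log2 scale over line means, without predicted genes (Gm, Rik and similar symbols). For each tested receptor, up to 3 such genes most like it over the 7 line means were found by Pearson correlation on that scale. With 7 points that share genotype groups and lines, such values describe order only. Egfr was most like Spa17 (r = 0.993), Chn2 (r = 0.988) and Epb41l2 (r = 0.976). Chn2, encoding a Rac GTPase-activating protein, was at 1.37 FPKM in PIC144-1 and 21.3 FPKM in PIC496-3, with the other lines between 7.08 and 14.6 FPKM. Fgfr3 was most like Cirbp (r = 0.985), Igfbp3 (r = 0.985) and Commd10 (r = 0.954). Igfbp3, encoding a binding protein of insulin-like growth factors, was at 37.5 FPKM in PIC144-1, 411 FPKM in PIC496-3 and 153 to 166 FPKM in the WT lines. Erbb4 was most like Smarca1 (r = 0.996), Kif13a (r = 0.996) and Wasf3 (r = 0.981). Smarca1, encoding a chromatin remodelling ATPase, was at 0.0396 to 0.544 FPKM in the mutant and 1.16 to 1.99 FPKM in the WT lines. Erbb2 was most like Fabp3 (r = 0.978) and Gpc3 (r = 0.971), Fgfr1 like Lsmem2 (r = 0.956), Rpl35 (r = 0.949) and Gstm1 (r = 0.938), and Fgfr2 like Zc2hc1a (r = 0.963), Pabpc4l (r = 0.954) and Mtfp1 (r = 0.953).

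Genes close to each receptor on its chromosome were also read. Within 5 Mb on either side, 20 to 182 genes were tested per receptor, and 1 of them was called between genotypes, near Erbb3. Their median difference between genotypes lay between −0.12 around Met and 0.17 around Erbb2. Single lines stood apart when each line was set against the mean of the lines on the log2 scale. The median over the 182 neighbours of Erbb2 was 0.386 in PIC144-1 and −0.0995 to 0.0374 in the other lines. Over the 20 neighbours of Met it was −0.426 in PIC496-4 and −0.168 to 0.136 in the others. Erbb4 lies on the same chromosome as Idh1, 2.85 Mb away, and its 34 tested neighbours had a median difference of 0.11 with none called. Copy number was not measured.

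No tested marker of the cell type lists was called between genotypes in limma. An unadjusted p under 0.05 was found for 2 neuronal, 1 oligodendrocyte lineage and 1 Schwann cell marker, lower in mutant lines. It was also found for 1 neural stem and glioma stem marker, higher in mutant lines. Of all genes tested, 6.7% were lower and 6.09% higher at that level. Summed levels are given beside Erbb4 and Erbb2. The 6 neuronal markers summed to 26.4 to 34.8 FPKM in mutant and 44.9 to 73.0 FPKM in WT lines. The 8 oligodendrocyte lineage markers, of which 3 were tested, summed to 15.1 to 51.3 FPKM and 54.0 to 202 FPKM. Neither sum overlapped between genotypes, though single members such as Cspg4 and Nkx2-2 overlapped. Pdgfra made up 104 of the 202 FPKM in PC308-1. How often sums of other gene sets lie apart in this way was not counted. The 6 endothelial and pericyte markers summed to 0.293 to 0.561 FPKM and 0.810 to 0.944 FPKM, without overlap. The 8 astrocyte markers summed to 238 to 419 FPKM and 268 to 374 FPKM, and overlapped. The part of these markers in the values of Erbb4 and Erbb2 was not tested.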

How the data were processed

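The values used are FPKM deposited by the authors for 54532 genes in 21 libraries. Per the labels' protocols, polyA RNA from stranded libraries was sequenced as read pairs. Per the submitters' processing notes the aligner was HISAT2 and the build mm39, but 53499 genes have the exact GRCm38 coordinates of GENCODE M21, so GRCm38 is given. How fragments were assigned to genes, with which annotation and whether by strand, is not given in the sources used here. FPKM times gene length gave whole fragments within 0.05 for 100% of values under 1000 fragments. Libraries of a line differed by more than sampling noise (chi-square per gene of 3.79 to 26.9 between pairs), so each was kept. The widest pairs were those of PIC496-4 replicate 2 with replicates 1 and 3, at 26.9 and 22.8, against 4.165 between replicates 1 and 3.

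Line means, as log2(FPKM + 0.5), were fitted in R 4.3.3 with limma 3.58.1 (eBayes with trend and robust) over genes at 0.5 FPKM or more in at least 3 lines, with Benjamini-Hochberg adjustment over all of them and a threshold of 0.05. Lines were compared by limma F tests over libraries, and receptors also by exact two-sided permutation. The scripts were tested on simulated data. Named were the 8 receptors and, of each list, any called member, the 2 most abundant and the 2 most variable. For each tested receptor the genes most like it over the lines were named, except that 1 is not reported here. Other genes were chosen after their values were seen. The members and lists were chosen with earlier results of these data known. Alternatives were pseudocounts, filters, scalings, variance models, averaged lines, left-out lines and replicates, limma voom on recovered fragments and, chosen after seeing the data, line means of log2 values. Promoters are from RefSeq for GRCm38.p6. Figures were drawn with matplotlib 3.10.9.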

Additional observations from a re-analysis of the deposited data

Results flagged for a closer look

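In the 4 IDH1 mutant lines, 3 of the 8 receptors had a line that stood apart in FPKM. The gap of this line to the nearest other, divided by the whole range, exceeded the critical value for 4 samples. Chance alone exceeds that value in about 1 of 20 groups of normally distributed values. The share of all genes with such a line was not counted, and the gaps were not taken on the log2 scale. For Erbb2 this line was PIC144-3 at 4.70 FPKM, with a gap of 0.906 of the range. For Fgfr1 it was again PIC144-3, at 35.9 FPKM, with a gap of 0.834. For Met it was PIC144-1 at 1.72 FPKM, with a gap of 0.833. In all 3 genes the line was the highest of the mutant lines.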

How the results depend on the processing

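The 16 genes called between genotypes became 3 without the expression filter, 8 with a filter at 2 FPKM, 6 with lines sharing a number averaged, 552 with the 21 libraries and the line as a random effect, and 440 with the replicate block added to that fit. Limma voom on recovered fragments called 0, with 1566 at an unadjusted p under 0.05. Leaving out a line gave 0 to 29 genes: 0 without PC134-0 (693 at an unadjusted p under 0.05) and without PC326-1 (923), 5 without PIC496-4, 9 without PIC144-1, 10 without PIC496-3 and 29 without PC308-1. The cause was not tested, except that fewer lines enter the last fits. Leaving out a line, Egfr's difference ranged from −0.44 (PIC496-3) to 0.40 (PIC144-1). The receptors counted at an exact p under 0.05 went from 1 to 0 at a pseudocount of 0.1. Erbb2 and Erbb4 were called in the fits over 21 libraries and in no other fit run. With the replicate block there, adjusted p was 0.0193 and 0.000436 in limma. Replicate numbers did not pair the lines: same-numbered libraries had correlated deviations of −0.124 to 0.292 (median 0.0149), and 9 of 21 correlated best with their own number. Among the WT lines, the F test lost Erbb4 at a pseudocount of 0.1 (adjusted p = 0.0508) and without replicate 1 (0.0568), and Fgfr2 without replicate 1 (0.0598). Erbb4's difference ranged from −5.45 with voom to −1.14 at a pseudocount of 1, and was not fitted at 2 FPKM or without a WT line. Depth limits Erbb3, Met and Erbb4, with as few as 8, 6 and 2 fragments in a line.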

Other observations

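Of 11 genes for the shedding of ErbB ligands from the membrane 9 reached 1 FPKM in a line and 9 were tested. Of these none was called between genotypes, with 6 positive and 3 negative differences. Rhbdf2 and Rhbdl2 were at most 0.415 FPKM and 0.251 FPKM in any line. Adam10 was at 54.4 to 68.6 FPKM and Adam9 at 40.6 to 77.5 FPKM. Adam17, the main sheddase of amphiregulin and TGF-alpha, was at 8.58 FPKM in PC134-0 and 9.38 FPKM in PC326-1, and at 16.7 to 20.6 FPKM in the other 5 lines. Timp3, which encodes an inhibitor of ADAM17, was at 3.02 FPKM in PIC144-1, 2.44 FPKM in PIC144-3, 3.15 FPKM in PIC496-3 and 1.39 FPKM in PIC496-4. It was at 9.44 FPKM in PC134-0, 9.34 FPKM in PC308-1 and 6.17 FPKM in PC326-1. The mutant lines all lay below the WT lines, an order found in 6.43% of the genes tested. The difference was −1.58 (SE 0.274, unadjusted p = 0.000482 and adjusted p = 0.137 in limma). Timp3 was the 1 member of this list with an unadjusted p under 0.05. Of all genes tested, 6.7% had such a p and were lower in mutant lines.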
